A study of Mus musculus with 21 samples.

Results

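The annexins are a family of proteins that bind acidic membrane phospholipids when calcium rises, and some of them act together with small calcium-binding proteins of the S100 family. Of this group 10 genes, Anxa1, Anxa2, Anxa3, Anxa4, Anxa5, Anxa6, Anxa7, Anxa11, S100a6 and S100a10, were measured in mice that lack cystatin B (Cstb), an inhibitor of lysosomal cysteine proteases whose loss in humans causes progressive myoclonus epilepsy of Unverricht-Lundborg type. The members were taken by gene symbol: every probe set of the Affymetrix array that the platform annotation assigns to 1 of these symbols alone was included, which gave 21 probe sets of 9 genes out of 45037 probe sets tested. The only probe set that names Anxa11 also names 2 other genes, so that Anxa11 had no probe set of its own.

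RNA came from whole cerebella of Cstb−/− mice and wild type littermates, called controls here, at postnatal day 7 (P7, 4 arrays of each genotype) and day 30 (P30, 3 arrays of each genotype). A further set came from cultures of cerebellar granule cells made from day 5 pups and kept for 2 days in vitro, with 3 arrays of Cstb−/− and 4 of control cells. All mice were of the 129SvJ background and the Cstb deletion was present in every tissue, and the cultures of both genotypes had been freed of meninges at dissection and treated with the antimitotic agent AraC. Both sexes were labelled among the P7 cerebella and the cultures, and P7 is labelled pre-symptomatic. At P7, Cstb−/− arrays 1, 2 and 3 are labelled male and array 5 female. Control array 3 is labelled male there, and control arrays 1, 2 and 4 female. Sex and genotype were thus unbalanced at P7, and a fit with the labelled sex as covariate is given below. The labels give each array its own number but do not say whether cultures came from separate litters or days, so that p-values measure the spread between these arrays, which may be in part technical.

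Annexin A2 is held in a complex by a dimer of S100A10, and this complex lies under the plasma membrane, where it binds tissue plasminogen activator and plasminogen and organizes vesicle fusion. S100A6, also known as calcyclin, is abundant in fibroblasts and rises when resting cells enter the cell cycle. In the brain, annexins are best known from glial, vascular and meningeal cells, annexin A1 as an anti-inflammatory protein that acts through formyl peptide receptors and annexin A5 as the reagent that detects phosphatidylserine on dying cells.

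The deposited values are log2 signals from which the median of each probe set was subtracted within each experiment, so that the level of a gene is not kept and probe sets cannot be ranked by abundance. Each value given per array is a log2 value from which the control mean of the same experiment was subtracted, and every difference is Cstb−/− minus control, fitted with limma over all probe sets and adjusted by Benjamini-Hochberg. Changed probe sets were those with a fold of 1.3 or more whose adjusted p lay below 0.05 (cerebella) or 0.01 (cultures), and these are named called. In bulk RNA, fewer cells of a type and less RNA per cell cannot be told apart. Cstb itself was low on every Cstb−/− array, with differences of -3.10 and -2.31 for its 2 probe sets at P7, -2.70 and -2.77 at P30, and -2.08 and -1.86 in the cultures.

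Some sex labels went against the arrays. The Y-linked Eif2s3y was low (-2.33) on Cstb−/− culture 1, labelled male, and high (1.78) on Cstb−/− culture 2, labelled female, while control cultures 7 and 8 carried both Xist and Eif2s3y signal. At P30, Cstb−/− array 1 is labelled female, yet Xist and Eif2s3y did not part it from the male arrays. Results from the cultures are therefore also given without these arrays.

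Promoters are shown here for the called genes with the largest differences in the cultures, all higher in Cstb−/− cells. The 3 promoters are those of the first genes in this order with an entry in the promoter table. They are the 250 bases before the annotated start, from RefSeq on the build GRCm38.p6, given on the strand of the gene, and 7 of the 10 genes matched that table. Capitals mark matches on either strand to 6 motifs that were searched: the AP-1 site TGANTCA, the TEAD element CATTCC, the cell cycle homology region TTTGAA, the GC box GGGCGG, the TATA box TATAAA and CCAAT.
Anxa1, chr19:20390672-20390921, minus strand: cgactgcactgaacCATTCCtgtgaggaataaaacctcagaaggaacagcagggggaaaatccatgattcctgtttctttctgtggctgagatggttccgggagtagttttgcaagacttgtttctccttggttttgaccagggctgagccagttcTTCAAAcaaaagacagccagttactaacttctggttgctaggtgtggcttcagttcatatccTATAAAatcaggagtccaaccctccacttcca
S100a6, chr3:90612644-90612893, plus strand: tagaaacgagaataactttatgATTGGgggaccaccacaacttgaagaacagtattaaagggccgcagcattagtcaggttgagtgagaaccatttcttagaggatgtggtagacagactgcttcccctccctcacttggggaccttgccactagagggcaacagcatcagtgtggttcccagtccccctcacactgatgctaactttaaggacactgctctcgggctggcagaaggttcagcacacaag
Anxa2, chr9:69453433-69453682, plus strand: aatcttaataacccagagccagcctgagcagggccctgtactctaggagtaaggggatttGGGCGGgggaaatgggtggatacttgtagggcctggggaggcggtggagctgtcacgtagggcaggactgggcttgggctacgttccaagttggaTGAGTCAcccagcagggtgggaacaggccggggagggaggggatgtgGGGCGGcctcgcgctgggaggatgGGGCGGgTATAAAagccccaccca

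The 3 promoters shared few of these letters. Anxa1 held a TEAD element 236 bases before the start, a cell cycle homology region at 94 and a TATA box at 32, and Anxa2 held an AP-1 site at 95, GC boxes at 190, 48 and 24 and a TATA box at 17. S100a6 held only a reversed CCAAT box at 228. No 2 of the matches overlapped. Among the 32851 promoters of the table, windows of the same length held the AP-1 site in 6.75%, the TEAD element in 12.6%, the cell cycle homology region in 16.0%, the GC box in 32.7%, the TATA box in 12.4% and CCAAT in 33.8%. A match is a description of the letters and not of a factor bound there.

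In the granule cell cultures, 8 of the 21 probe sets rose in Cstb−/− cells and none fell, whereas 2.07% of all probe sets rose there and 0.469% fell. The 8 belonged to 7 genes: Anxa1, Anxa2, Anxa3, Anxa4, Anxa5, S100a6 and S100a10. Of the 21, 19 had higher values in the Cstb−/− cultures and 2 lower, where 45.5% of all probe sets had higher values, with a median difference of 0.74 against -0.02 for all probe sets. The 3 Cstb−/− arrays lay above all 4 control arrays for 14 member probe sets and below them for 1, where 13.4% and 9.33% of all probe sets did so. At an unadjusted p under 0.05, 15 members passed, where 31.6% of all probe sets did. All members were chosen with earlier results of these data known, and Anxa1, Anxa2 and Anxa5 had been picked out as higher in these same cultures before. Counts of members that involve the cultures, and their directions, are therefore not independent evidence.

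**Figure D1:**
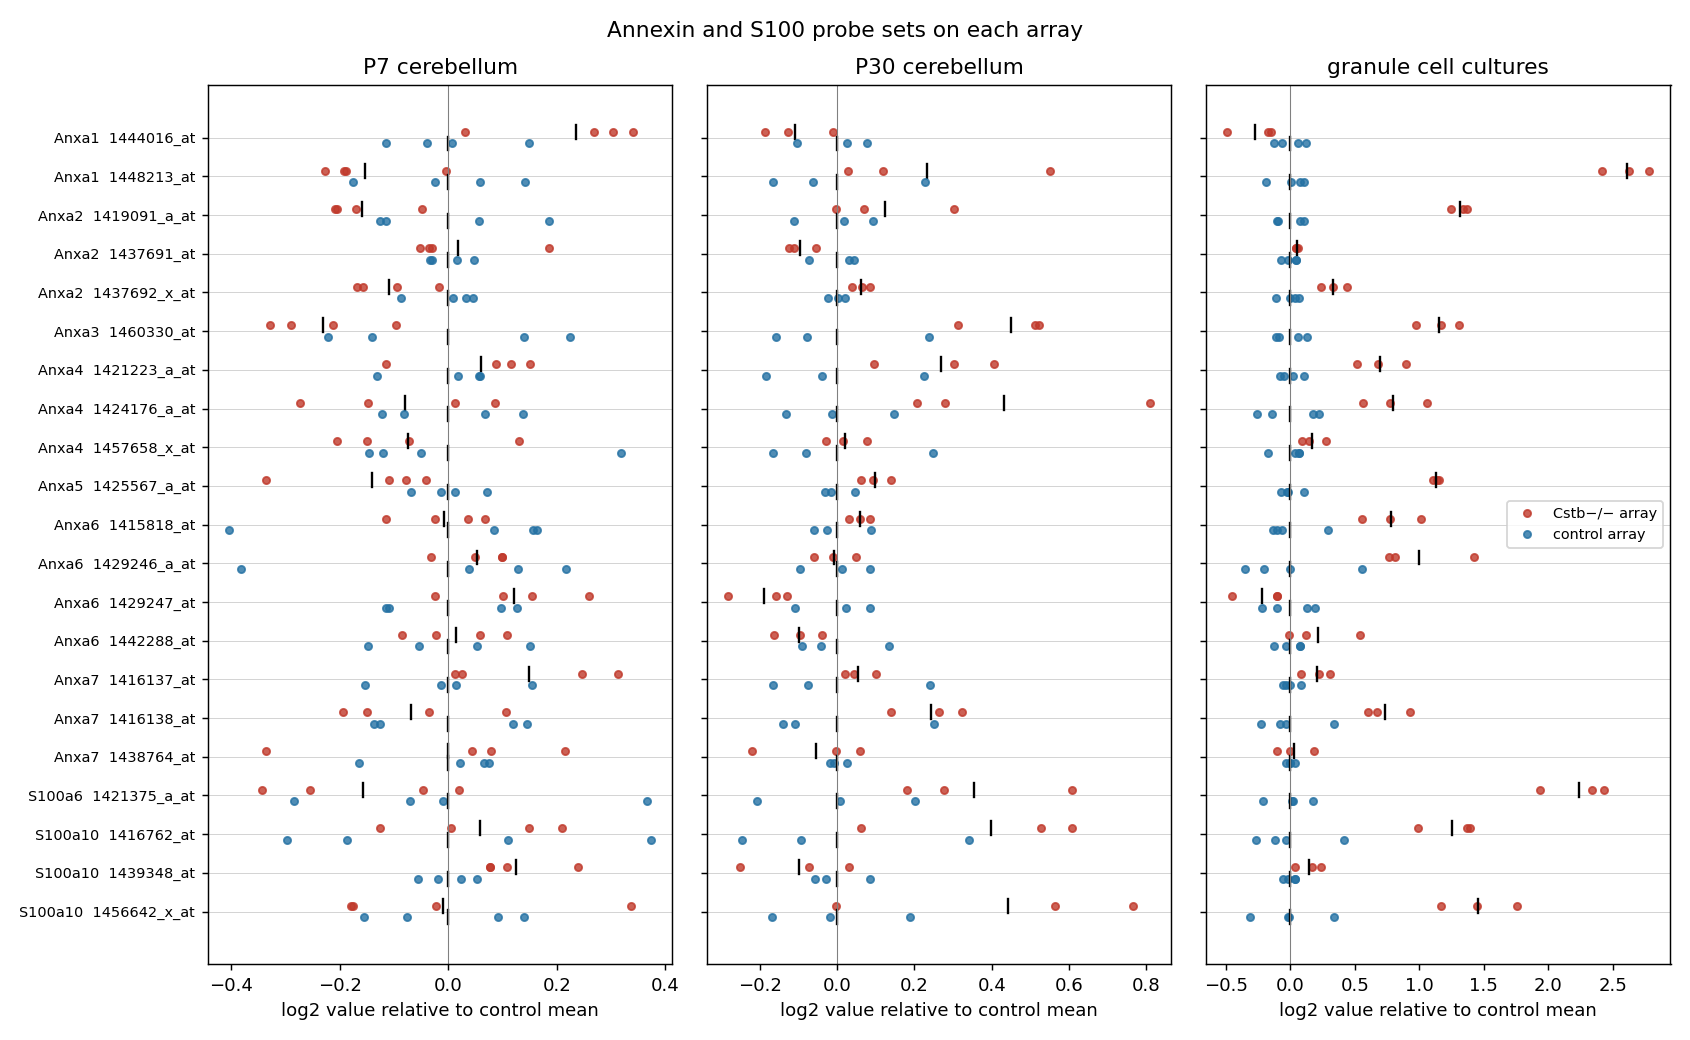
Each point is 1 array and each row 1 probe set; the x axis is the log2 value relative to the control mean of the experiment, red points are Cstb−/− arrays, blue points control arrays, and vertical ticks the group means. In the cultures Anxa1 1448213_at and S100a6 stand farthest to the right, with Cstb−/− arrays at 1.93 and above, while the colours overlap for 20 of 21 probe sets at P7.

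Anxa1, whose product limits leukocyte recruitment and is induced by glucocorticoids, showed the largest difference. Its probe set 1448213_at read 2.42, 2.78 and 2.62 in Cstb−/− cultures 1, 2 and 3, against 0.08, 0.0045, -0.18 and 0.11 in control cultures 4, 5, 7 and 8. All Cstb−/− cultures lay more than 2 log2 units above the highest control, and their spread was much smaller than the gap. The difference was 2.61 (SE 0.11), a fold of 6.10 (limma adjusted p = 2.86e-05).

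S100a6 was second. Probe set 1421375_a_at read 2.34, 1.93 and 2.44 in the Cstb−/− cultures, against 0.18, -0.21, 0.02 and 0.01 in the controls. The groups lay far apart, with Cstb−/− culture 2 the lowest of its group. The difference was 2.24 (SE 0.14), a fold of 4.71 (limma adjusted p = 1.21e-04).

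Both genes of the annexin A2 complex, Anxa2 and S100a10, rose. Anxa2 1419091_a_at read 1.37, 1.25 and 1.34 in the Cstb−/− cultures, against 0.08, 0.11, -0.09 and -0.10 in the controls, a difference of 1.32 (SE 0.08, limma adjusted p = 1.31e-04). S100a10 1416762_at read 0.99, 1.37 and 1.39, against 0.42, -0.12, -0.26 and -0.04 in the controls. S100a10 1456642_x_at read 1.76, 1.17 and 1.45, against 0.34, -0.31, -0.01 and -0.01. For Anxa2 the controls were close together, whereas for both S100a10 probe sets control culture 4 stood above the other controls. The S100a10 differences were 1.25 (SE 0.17, limma adjusted p = 0.00479) and 1.46 (SE 0.18, limma adjusted p = 0.00288). By the array maker's naming, some probes of a set that ends in _x_at also match other sequences, so that the second S100a10 value is less certain.

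Anxa3, a phospholipid-binding annexin known from neutrophils and microglia, and Anxa5, the phosphatidylserine-binding annexin, rose by about the same amount. Anxa3 1460330_at read 0.98, 1.31 and 1.17 in the Cstb−/− cultures, against -0.09, 0.13, 0.06 and -0.11 in the controls. Anxa5 1425567_a_at read 1.11, 1.14 and 1.15, against 0.11, -0.07, -0.03 and -0.01. The Cstb−/− arrays of Anxa5 were the most even of all called members, with an SD of 0.02, against 0.08 in the controls. The differences were 1.15 for Anxa3 (SE 0.10, limma adjusted p = 7.23e-04) and 1.13 for Anxa5 (SE 0.07, limma adjusted p = 1.31e-04).

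Anxa4, an annexin of epithelial membranes, was the called member with the smallest difference. Probe set 1421223_a_at read 0.90, 0.68 and 0.52 in the Cstb−/− cultures, against 0.03, -0.05, -0.08 and 0.10 in the controls. The groups did not overlap, and the difference was 0.70 (SE 0.10, limma adjusted p = 0.00628). A further Anxa4 probe set, 1424176_a_at, differed by 0.80 with a wider spread (SE 0.16, limma adjusted p = 0.0184) and was not called.

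Anxa6 and Anxa7 had no called probe set. Anxa6 encodes the annexin with a doubled core that binds late endosomes and caveolar membranes, and its sets 1429246_a_at and 1415818_at differed by 1.00 (SE 0.24, limma adjusted p = 0.0348) and 0.78 (SE 0.14, limma adjusted p = 0.0134). Anxa6 1429246_a_at read 1.43, 0.77 and 0.81 in the Cstb−/− cultures, against 0.55, -0.35, -0.20 and -0.0017 in the controls. The groups did not overlap here either, and control culture 4 and Cstb−/− culture 1 were the highest of their groups. Anxa7, known as synexin and a partner of sorcin, differed by 0.74 for 1416138_at (SE 0.14, limma adjusted p = 0.0173), with arrays at 0.60, 0.68 and 0.93 in the Cstb−/− cultures, against 0.34, -0.22, -0.08 and -0.03 in the controls.

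With each array left out in turn, the number of called members in the cultures ran from 5 to 9, and it was 5 without Cstb−/− culture 1, Cstb−/− culture 3, control culture 7 or control culture 8. Anxa1 1448213_at, Anxa2 1419091_a_at, Anxa3, Anxa5 and S100a6 were called in all 7 of these fits. Their differences changed little in these fits, from 2.52 to 2.70 for Anxa1 1448213_at, 2.14 to 2.39 for S100a6 and 1.29 to 1.36 for Anxa2 1419091_a_at. Without control cultures 7 and 8 together only Anxa1 1448213_at was called. Without Cstb−/− cultures 1 and 2 a single Cstb−/− array was left, assumed to vary like the controls, and no probe set of the whole array was called, although the differences were then 2.62 for Anxa1 1448213_at, 2.44 for S100a6 and 1.34 for Anxa2 1419091_a_at.

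Probe sets of the same gene disagreed. For Anxa1, 1444016_at read -0.49, -0.15 and -0.17 in the Cstb−/− cultures, against -0.07, 0.13, 0.06 and -0.12 in the controls. These Cstb−/− arrays lay below all controls, opposite to 1448213_at, although the difference of -0.27 (SE 0.11) was not called (limma adjusted p = 0.133). For Anxa2, 1437692_x_at differed by 0.33 (SE 0.08, limma adjusted p = 0.0381) and 1437691_at by 0.05. S100a10 1439348_at differed by 0.15, Anxa4 1457658_x_at by 0.17, Anxa6 1442288_at by 0.22 and 1429247_at by -0.22, and Anxa7 1416137_at by 0.21 and 1438764_at by 0.03, and none of these was called.

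**Figure D2:**
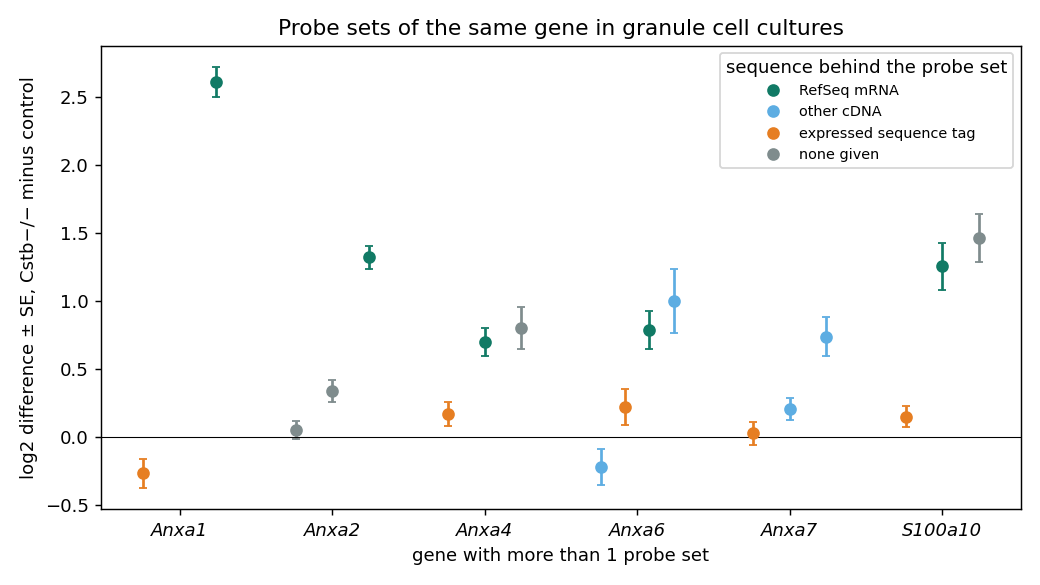
Points are the log2 difference, Cstb−/− minus control, of each probe set of the 6 genes with more than 1 probe set in the granule cell cultures, with the SE as bars. Colours give the kind of sequence, read from the prefix of the identifier that the annotation lists for the probe set. The 5 points from expressed sequence tags lie between -0.27 and 0.22 and the 5 RefSeq points plotted between 0.70 and 2.61.

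The annotation names a sequence for most member probe sets by an identifier, and its kind was read here from the prefix. NM_ was taken as RefSeq mRNA, BE, BB, BG and AV as expressed sequence tags, and any other prefix as other cDNA. The 6 member probe sets listed with a RefSeq mRNA differed by 0.70 to 2.61, with a median of 1.29, and 5 of them were called. The 5 listed with an expressed sequence tag differed by -0.27 to 0.22, with a median of 0.15, and none was called. Of the 5 listed with another cDNA 1 was called, and of the 5 with no sequence given 2 were. Where the probes lie along each transcript was not examined here, and a low signal could not be told from these centred values. With all probe sets of a gene averaged, the same 7 genes were called in the cultures, with differences of 2.24 for S100a6, 1.17 for Anxa1, 1.15 for Anxa3, 1.13 for Anxa5, 0.95 for S100a10, 0.57 for Anxa2 and 0.56 for Anxa4.

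At P30 no member was called, where 0.144% of all probe sets were. Of the 21 probe sets, 14 had higher and 7 lower values in the Cstb−/− cerebella, where 47% of all probe sets had higher values, and the median difference was 0.06 against -0.01 for all probe sets. At an unadjusted p under 0.05, 6 members passed, where 7.72% of all probe sets did, and the lowest adjusted p was 0.356. The 6 were Anxa6 1429247_at, which was lower, and Anxa3, Anxa4 1424176_a_at, S100a6, S100a10 1416762_at and S100a10 1456642_x_at, which were higher. The groups did not overlap for 4 members that were higher and 1 that was lower, where 6.24% and 6.25% of all probe sets did so.

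Anxa3 had the largest P30 difference. It read 0.52, 0.31 and 0.51 in Cstb−/− cerebella 1, 2 and 3, against -0.16, 0.24 and -0.08 in controls 1, 2 and 3. The groups did not overlap, but Cstb−/− array 2 and control array 2 were close. The difference was 0.45 (SE 0.11, limma adjusted p = 0.356).

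S100a10, Anxa4 and S100a6 followed. S100a10 1456642_x_at read 0.56, -0.0035 and 0.77 in the Cstb−/− cerebella, against -0.02, -0.17 and 0.19 in the controls, a difference of 0.44. Anxa4 1424176_a_at read 0.21, 0.81 and 0.28, against -0.01, -0.13 and 0.15 in the controls, a difference of 0.43. The S100a10 groups overlapped through Cstb−/− array 2, and the Anxa4 groups did not. S100a6 read 0.61, 0.18 and 0.28 in the Cstb−/− cerebella, against -0.21, 0.01 and 0.20 in the controls, a difference of 0.36 with overlapping groups. The adjusted p of these 3 were 0.618, 0.557 and 0.586 by limma. With 1 array left out the differences ran from 0.28 (without Cstb−/− array 3) to 0.66 for S100a10, from 0.24 (without Cstb−/− array 2) to 0.54 for Anxa4 and from 0.23 (without Cstb−/− array 1) to 0.46 for S100a6. Anxa1 1448213_at, the largest in the cultures, differed by 0.23 at P30, where Cstb−/− array 1 read 0.55 against 0.23 for the highest control. Anxa5 differed by 0.10 and Anxa2 1419091_a_at by 0.12. On the low side, Anxa6 1429247_at differed by -0.19 without overlap.

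At P7 no member was called, and 0.00666% of all probe sets were. The values were split evenly, 10 higher and 11 lower in the Cstb−/− cerebella, where 53.7% of all probe sets had higher values, and the median difference was -0.01 against 0.01 for all probe sets. The range was from -0.23 for Anxa3 to 0.24 for Anxa1 1444016_at, and 1 member had an unadjusted p under 0.05, where 9.45% of all probe sets did.

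That member was Anxa1 1444016_at, the probe set that was lower in the cultures. It read 0.34, 0.03, 0.30 and 0.27 in Cstb−/− cerebella 1, 2, 3 and 5, against -0.04, -0.12, 0.01 and 0.15 in controls 1, 2, 3 and 4. Cstb−/− array 2 fell among the controls and the other 3 lay above them (limma adjusted p = 0.472). Anxa1 1448213_at differed by -0.15, with 95% limits from -0.34 to 0.04. S100a10 1439348_at was the only member whose P7 groups did not overlap, with Cstb−/− arrays at 0.08, 0.11, 0.24 and 0.08, against -0.02, 0.02, -0.06 and 0.05 in the controls, where 2.8% of all probe sets lay higher and 2.84% lower without overlap.

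**Figure D3:**
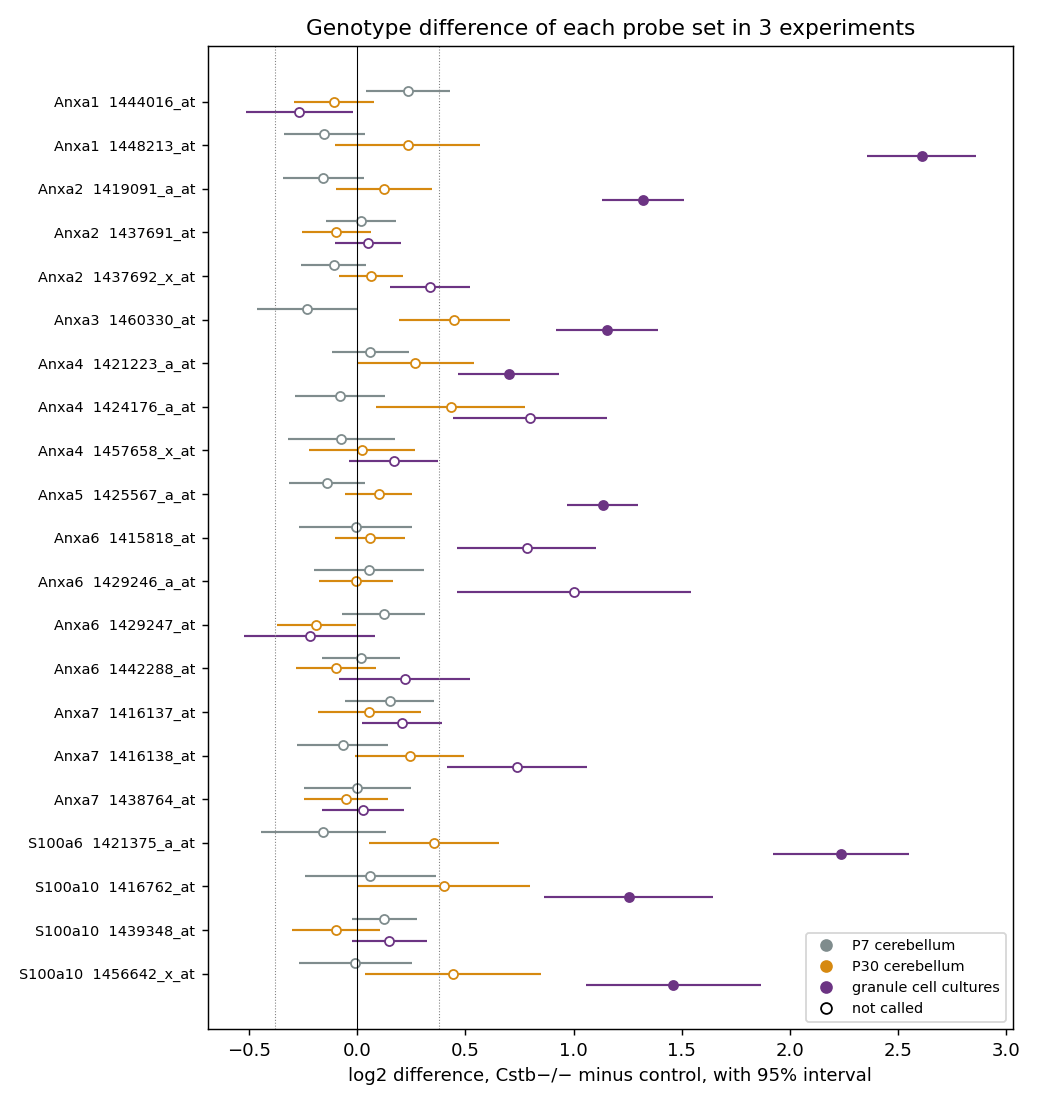
Points are the log2 difference, Cstb−/− minus control, of each member probe set in the P7 cerebella (grey), P30 cerebella (orange) and granule cell cultures (purple), with 95% intervals as lines, filled where called, and dotted lines at the fold of 1.3. Filled points occur only for the cultures, and the cerebellar points stay between -0.23 and 0.45.

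Whether the genotype difference itself differed between experiments was tested in a fit of all 21 arrays. Between cultures and P7 cerebella, 14 of the 21 members differed at an adjusted p under 0.05, 13 upward and 1 downward, where 20.3% of all probe sets differed and 13% upward. The largest were 2.76 (SE 0.17) for Anxa1 1448213_at, 2.39 (SE 0.20) for S100a6, 1.48 (SE 0.12) for Anxa2 1419091_a_at, 1.47 (SE 0.24) for S100a10 1456642_x_at and 1.39 (SE 0.16) for Anxa3. The downward member was Anxa1 1444016_at, at -0.51 (SE 0.13, limma adjusted p = 0.0112), so that the 2 probe sets of Anxa1 parted further. Tissue and cultures differ in cells, age and handling, and these cannot be told apart. Between P30 and P7, none of the 21 members differed, where 0.124% of all probe sets did, and Anxa3 had the smallest p with 0.68 (SE 0.16, limma adjusted p = 0.182). At an unadjusted p under 0.05, 8 of the 21 did, where 7.78% of all probe sets did. Of these 8, Anxa1 1444016_at (-0.34) and S100a10 1439348_at (-0.22) differed downward and the rest upward, among them Anxa1 1448213_at (0.39).

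Across arrays, Anxa2 1419091_a_at and S100a10 1416762_at, whose products form a complex, were compared within the cerebella. At P30 Pearson's r was 0.69 over 6 arrays (exact permutation p = 0.115, 2-sided) and Spearman's rho 0.66 (exact permutation p = 0.175), with r at 0.73 without the 2 arrays farthest from the Anxa2 median. At P7 r was 0.35 over 8 arrays (exact permutation p = 0.395) and rho 0.14 (exact permutation p = 0.752), and r turned to -0.34 without those 2 arrays. After correction over these 2 relations the p of r were 0.231 at P30 and 0.395 at P7, and those of rho 0.350 and 0.752. Neither relation passed 0.05, and in the cultures the genotypes formed separate clusters, so that no r was computed.

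For Anxa1, Anxa2, S100a6 and S100a10, each by its lowest-numbered probe set, the most similar probe sets were sought by Pearson's r of the deviations from the 6 group means on all 21 arrays. The member genes were left out of the 34924 single-gene probe sets searched, so that no member could appear. For S100a6 these were Smim13 (r = 0.93), Ankrd13c (0.90) and Noct (0.89), for S100a10 Rsu1 (0.82), Sik2 (0.82) and Slc38a1 (0.80), for Anxa2 Rapgef3 (0.77), 4930570E01Rik (0.77) and Ptpn20 (0.76), and for Anxa1 1444016_at Adk (0.83), Syne3 (0.81) and Upp2 (0.80). The points share arrays, and no test was run on these values. They are the highest picked from 34924 over only 21 arrays, and values picked in this way can be high without any relation. In the cultures Rsu1 differed by 0.74 between the genotypes, and the other genes named here by -0.28 (4930570E01Rik) to 0.22 (Noct).

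Other genes of these families and of their known partners were counted in the cultures as well. Of 11 other S100 genes measured, 1 rose, S100a4, a marker of motile fibroblasts, by 1.45 (SE 0.16). Of 14 genes of membrane repair and caveolae, 1 rose, Cav1, the main caveolar coat protein, by 1.21. None of 4 other annexins (Anxa8, Anxa9, Anxa10 and Anxa13), of 13 binding proteins or of 9 genes of the plasminogen system was called. Of the binding proteins 8 had higher and 5 lower values, with a median difference of 0.03, and of the plasminogen system genes 6 had higher and 3 lower values, with a median of 0.06. Of the other S100 genes 3 had higher and 8 lower values, with a median of -0.06. Over 18193 genes with 1 probe set each, 2.68% rose and 0.0934% fell in the cultures, and nothing particular to these lists is read from so few calls.

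Markers of fibroblasts and of division were higher in the same cultures as the annexins. Of 15 fibroblast and meningeal genes, 9 rose, with the list mean between 1.36 and 1.42 in Cstb−/− cultures, against -0.06 to 0.13 in the controls, and the collagens Col1a1 (3.59), Col3a1 (3.49) and Col1a2 (3.41) led them. The median of this list was 1.22, or 0.79 with all probe sets of a gene averaged. Of its 15 genes 13 had higher values and 2 lower, Dcn (-0.28) and Igf2 (-0.02), and Ogn (0.07) and Fbln1 (0.14) differed little. Of 10 pericyte and smooth muscle genes 2 rose, the contractile genes Tagln (2.39) and Acta2 (2.25), which carried most of the list mean of 0.52 to 0.60 in Cstb−/− cultures, against -0.05 to 0.05 in the controls. The list median was 0.19, and 4 of its 10 genes had lower values. Of 11 mitosis genes 10 rose, among them Ccnb2 (2.34) and Bub1 (2.07), with the list mean between 1.51 and 1.60 in Cstb−/− cultures, against -0.13 to 0.07 in the controls. Genes of these lists, such as Col1a2, Col3a1, Acta2, Ccnb2 and Bub1, had been reported as higher in these same cultures before. The lists were chosen with such results known, so that their counts are not independent evidence. The genotypes did not overlap on any of these 3 list means, as they did not for Anxa1 1448213_at and S100a6. The same held for the astrocyte, membrane repair, binding protein and plasminogen lists, which were higher. It held too for the microglial list and the other annexins, which were lower. The gaps were unlike in size. The highest Cstb−/− culture and the lowest control were at -0.092 and -0.085 for the microglial list, and at -0.046 and -0.033 for the other annexins. For the plasminogen list the lowest Cstb−/− culture was at 0.113 and the highest control at 0.079. What these separations mean was not tested.

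Of 10 astrocyte genes 2 rose, Gja1 (1.67) and Aldh1l1 (0.76), with the list mean between 0.40 and 0.63 in Cstb−/− cultures, against -0.10 to 0.23 in the controls. Of 9 oligodendrocyte genes 1 rose, Olig2 (1.00), although 7 of the 9 had lower values and the list median was -0.19, with Mbp at -0.69. Of 11 granule neuron genes 1 fell, Fat2 (-0.62), while 6 of the 11 had higher values and the median was 0.07. No microglial, endothelial or choroid plexus gene was called in the cultures, with list medians of -0.14, -0.10 and -0.06. The part of these lists in the annexin and S100 differences was not tested, and their absolute levels are not kept in these values.

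**Figure D4:**
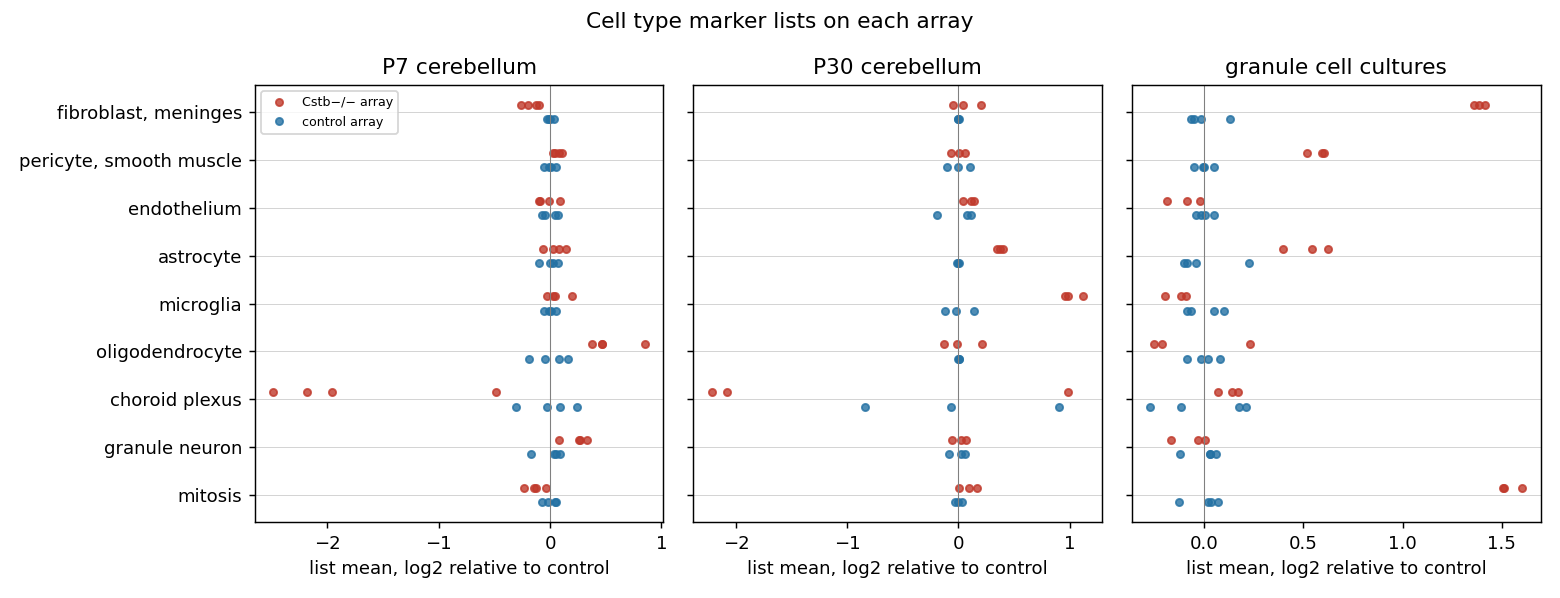
Points are the mean of each marker list on each array, as a log2 value relative to the control mean of the experiment, with Cstb−/− arrays in red and control arrays in blue. In the cultures the fibroblast list lies at 1.36 to 1.42 and the mitosis list at 1.51 to 1.60 on Cstb−/− arrays, and at P30 the microglial list lies at 0.96 to 1.12.

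In the cerebella other lists moved. At P30, 6 of 10 microglial genes rose, led by Tyrobp (2.20) and C1qb (2.06), with the list mean between 0.96 and 1.12 in Cstb−/− cerebella, against -0.12 to 0.14 in the controls, and of the astrocyte genes Gfap rose by 2.15. No fibroblast gene was called at P30, where that list had a median difference of 0.02. The choroid plexus list varied between P30 arrays, at -2.22, 0.99 and -2.08 on Cstb−/− arrays 1, 2 and 3, against -0.07, -0.84 and 0.91 on control arrays 1, 2 and 3, and Anxa4 1424176_a_at was also highest on Cstb−/− array 2 and control array 3 of their groups. At P7 no gene of any list was called. There all 9 choroid plexus genes had lower values, with list means between -2.49 and -0.48 in Cstb−/− cerebella, against -0.31 to 0.25 in the controls, and 13 of 15 fibroblast genes had lower values with a median difference of -0.15. In the other direction, 8 of 9 oligodendrocyte genes had higher values with a median of 0.49, and list means of 0.37 to 0.85 in Cstb−/− cerebella, against -0.19 to 0.16 in the controls, and 8 of 11 granule neuron genes had higher values with a median of 0.17. The part of these lists in the P30 values of Anxa3, Anxa4, S100a6 and S100a10 and in the P7 values was not tested.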

How the data were processed

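Affymetrix mouse genome arrays of 21 RNA samples were used. According to the methods, the authors processed the scans in GeneSpring GX with RMA (background adjustment, quantile normalization, summarization) and subtracted the median of each probe set. The deposited values are log2 signals, centred on 0 by the median of each probe set, separately in the 3 experiments. The software version is not given in the sources used here. The methods state 5 arrays per genotype at P7 and in the cultures, of which the authors left out 1 per genotype at P7 and 1 Cstb−/− culture. Of the cultures, 3 Cstb−/− and 4 control arrays were analysed here, fewer than the methods give after that exclusion. Tied arrays occurred in 51.3% of probe sets in the cultures, 2.86% at P7 and 2.10% at P30.

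Of 45101 probe sets, 64 controls were left out. By the platform annotation, 34945 probe sets had 1 symbol, 932 several and 9160 none. Genotypes were compared within each experiment with limma 3.58.1 in R 4.3.3 (lmFit, eBayes, 2-sided, Benjamini-Hochberg over 45037 probe sets), and differences of differences in 1 fit of all arrays. For gene lists, the lowest-numbered probe set of each gene was taken. Tables were handled in Python 3.11.15 with pandas 2.3.3, numpy 2.4.6 and SciPy 1.17.1. All member probe sets are reported, together with up to 4 called genes of each list. The members and lists were chosen with earlier results of these data known. A filter on low signals was not possible, because levels are not kept. The test was checked on simulated data with planted changes. The number of arrays limits the precision.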

Additional observations from a re-analysis of the deposited data

Results flagged for a closer look

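Groups of 3 arrays, which are both P30 groups and the Cstb−/− cultures, were not checked for outlying arrays. The 63 groups of 4 arrays were those of each member probe set in both P7 genotypes and in the control cultures. Of these, 4 held an array far from the other 3 of its group, and chance gives about 1 in 20. At P7, Anxa2 1437691_at read 0.18 on Cstb−/− array 2, while the others lay between -0.05 and -0.03. Anxa6 1415818_at read -0.40 on P7 control array 3, with the others between 0.08 and 0.16. In the cultures, Anxa4 1457658_x_at read -0.18 on control array 5, with the others between 0.04 and 0.07, and Anxa6 1415818_at read 0.29 on control array 4, with the others between -0.13 and -0.06.

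For 14 member probe sets of 9 genes the genotype difference in the cultures differed from that at P7 by a limma contrast. It was larger by 2.76 for Anxa1 1448213_at, 2.39 for S100a6 1421375_a_at, 1.48 for Anxa2 1419091_a_at, 1.39 for Anxa3 1460330_at and 1.27 for Anxa5 1425567_a_at. The S100a10 sets followed with 1.47 for 1456642_x_at and 1.19 for 1416762_at, then Anxa6 with 0.95 for 1429246_a_at and 0.79 for 1415818_at, Anxa4 with 0.88 for 1424176_a_at and 0.64 for 1421223_a_at, Anxa7 1416138_at with 0.81 and Anxa2 1437692_x_at with 0.44. Anxa1 1444016_at alone moved downward, by -0.51.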

How the results depend on the processing

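In the cultures, 8 members were called. The methods' t-test, here on the arrays analysed and adjusted over all probe sets without the methods' filter on expression, called 2 (Anxa1 1448213_at and Anxa5), array weights 11, a fit of all 21 arrays 12, the labelled sex as covariate 9 and an adjusted p threshold of 0.05 called 12. Leaving out each array in turn gave 5 to 9. Leaving out control arrays 7 and 8, chosen after seeing the data, gave 1, and leaving out Cstb−/− arrays 1 and 2, also chosen then, gave 0, with 1 Cstb−/− array left in the fit. At P7 and P30 no member was called under any alternative run, and the 14 members that differed between cultures and P7 stayed at 14 under every alternative run.

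Over all probe sets, the cultures gave 1144 calls, against 32 by the methods' t-test, 2828 with array weights, 5725 in a fit of all 21 arrays, 4075 at the threshold of 0.05, 24 without control arrays 7 and 8 and 302 to 2685 with 1 array left out. P7 gave 3, against 1 by the methods' t-test, 17 with array weights, 16 in the fit of all arrays, 1108 with sex as covariate, 20 without Cstb−/− array 5 and control array 3, and 3 to 38 with 1 array left out. P30 gave 65, against 1, 226, 107 and 29 in the same order of settings, 27 at a threshold of 0.01 and 29 to 76 with 1 array left out. At P30 only Cstb−/− array 1 is labelled female, a label its sex genes did not bear out. The sex covariate there amounts to leaving this array out, which also gave 29 calls, and is no separate check. With gene means, 1 list gene was called at P7, against 0 in the main analysis, and the P7 correlation of Anxa2 and S100a10 turned to -0.15. The cause of these differences was not tested.

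In deviations from the group means, same-numbered arrays of the genotypes correlated at 0.01, 0.05 and 0.17 at P7 and at -0.04, -0.18 and -0.03 at P30. Differently numbered arrays ran from -0.21 to 0.28 at P7 and from -0.08 to 0.12 at P30. With so few arrays these values cannot decide whether replicate numbers pair the arrays. With the replicate number as a block, 0 members were called at both ages, and 2 probe sets of the whole array at P7 and 49 at P30. No paired fit was possible in the cultures because the genotypes share no number.

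Small uncalled differences changed sign. With the replicate number as a block at P7 Anxa4 1424176_a_at became 0.029, Anxa6 1415818_at 0.031, Anxa7 1438764_at -0.13 and S100a10 1416762_at -0.089. With sex as covariate at P7 Anxa2 1437691_at became -0.022, Anxa6 1415818_at 0.14 and S100a10 1416762_at -0.016, and at P30 Anxa4 1457658_x_at became -0.0069 and Anxa6 1429246_a_at 0.019. With array weights at P7 Anxa6 1429246_a_at became -0.019, Anxa6 1442288_at -0.023 and S100a10 1456642_x_at 0.012, and in the cultures Anxa7 1438764_at became -0.0012. With arrays centred on their median at P7 Anxa7 1438764_at became -0.0029. Without Cstb−/− array 5 and control array 3 at P7 Anxa6 1429246_a_at became -0.089, Anxa6 1442288_at -0.035, Anxa7 1438764_at -0.049 and S100a10 1456642_x_at 0.025. Without Cstb−/− arrays 1 and 2 in the cultures Anxa7 1438764_at became -0.099. With 1 array left out the differences ran, at P7, from -0.039 to 0.040 for Anxa2 1437691_at, -0.14 to 0.032 for Anxa4 1457658_x_at, -0.14 to 0.046 for Anxa6 1415818_at, -0.074 to 0.13 for Anxa6 1429246_a_at, -0.035 to 0.065 for Anxa6 1442288_at, -0.071 to 0.11 for Anxa7 1438764_at, -0.040 to 0.18 for S100a10 1416762_at and -0.13 to 0.047 for S100a10 1456642_x_at. They ran, at P30, from -0.061 to 0.14 for Anxa4 1457658_x_at, -0.055 to 0.036 for Anxa6 1429246_a_at, -0.028 to 0.18 for Anxa7 1416137_at and -0.11 to 0.028 for Anxa7 1438764_at. They ran, in the cultures, from -0.052 to 0.089 for Anxa7 1438764_at. A filter on low signals was not run, since signal over background is not kept in these values.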

Other observations

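The probe set that names Anxa11, an annexin that binds S100A6, together with 2 predicted genes was not counted as a member. It read -0.13, -0.21, -0.40 and -0.21 in the P7 Cstb−/− cerebella, against 0.08, 0.00, -0.25 and 0.17 in the controls, a difference of -0.24 (SE 0.10, limma adjusted p = 0.503), with control array 3 among the Cstb−/− arrays. It differed by 0.02 at P30 and by 0.17 in the cultures, and was not called in any of the 3 experiments.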
